A study of Physcomitrium patens with 21 samples.

Results

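The genes described here are the 100 gene models of the moss Physcomitrium patens whose level varied least over 21 stem libraries. They were chosen on the measured values themselves. Each library's read pairs per gene model were divided by the library's total and scaled to 1000000 pairs (CPM), and among the 4720 gene models whose mean level lay between 50 and 300 CPM, the 100 with the lowest coefficient of variation (CV, the SD over the 21 libraries divided by the mean) were taken. They are 100 of 32926 gene models in each table. Their CVs, their levels and every contrast between groups of the same libraries are therefore what chose them, and those values are given as a description. Where calls of the members in these contrasts are counted below, they come from the test over all genes and are no evidence about the members.

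All libraries came from the stem of the gametophore, the leafy shoot of the moss, of the Gransden wild type, grown at 23 °C under 16 h of light and 8 h of dark. In the first experiment gametophores were decapitated, which removes the shoot apex, and stems were sampled at 0, 2, 6, 12 and 24 h. The 2, 6, 12 and 24 h groups share the 0 h libraries as their control. RNA of each of these replicates was pooled from 5 to 10 gametophores of 4-week-old colonies, and the 24 h libraries carry a biotic stress tag that the other times lack. In the second experiment the treatment was 10 µM IAA (indole-3-acetic acid, the main natural auxin) for 30 min, and the control received the mock solvent for 30 min. The labels give no colony age and no pool size for these libraries, and their growth text differs from that of the decapitation series. Each of the 7 groups held 3 libraries, which the design calls biological replicates. All groups are of the same wild type.

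Genes of steady level are used as internal references: in quantitative PCR the level of a gene of interest is divided by theirs. Genes that keep basic cell functions running are the usual candidates, although a level that is flat in one tissue or treatment need not be flat in another. A level in CPM is a share of the library, so a gene flat in CPM kept its share of the counted mRNA, which is a different statement from keeping its number of transcripts per cell. In bulk stems, fewer cells of a type and less RNA per cell cannot be told apart. The identifiers of the tables are not paired with gene names, and none of the 32926 matched the RefSeq gene table at hand, so the genes are given by identifier, with no function. For the same reason the usual reference genes, such as actin or ubiquitin genes, could not be looked up, and the stem label could not be checked against marker genes.

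Between 18995348 and 32039288 read pairs were counted per library, and 94.6 to 96.2% of reads mapped. A member had a mean of 1124 to 6593 pairs per library, with a median of 2369 over the members.

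The CV of the members ran from 3.90 to 5.64%, with a median of 5.05%. The other 4620 genes of the same level window had a median CV of 16.4%, between 5.65 and 157%. The highest library of a member stood 1.14 to 1.30 times above its lowest library, with a median ratio of 1.21, while the median ratio was 1.76 among the other genes. Of the 2100 single values of the members, 2032 (96.8%) lay within 10% of the gene's own mean, against 44.5% of the values of the other genes. The lowest value was 0.861 and the highest 1.15 times the mean of its gene. In 45 members all 21 libraries lay within 10% of the mean, and in 99 members all lay within 15%. The members covered the whole level window, from 50.5 CPM in Pp3c7_18640V3.1 to 295.9 CPM in Pp3c26_360V3.1, with a median mean level of 106 CPM against 81.7 CPM in the other genes.

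**Figure D1:**
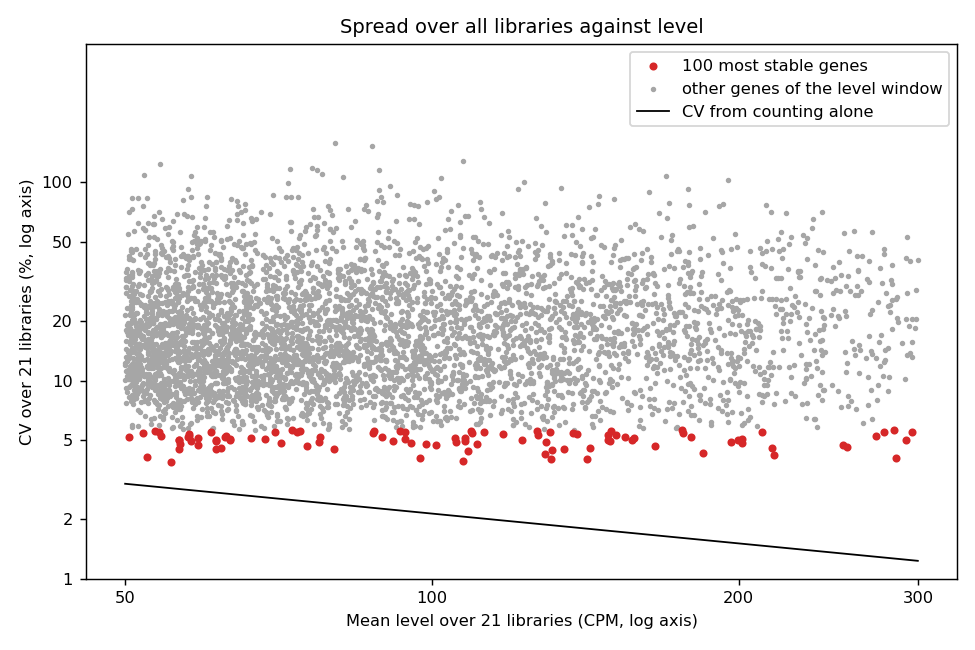
CV over the 21 libraries (%, log axis) against mean level (CPM, log axis) for the 100 most stable genes (red) and the other 4620 genes of the level window (grey), with the CV that counting error alone would give as a line. The members form the lower edge of the cloud at every level, at 3.90 to 5.64%, and all of them lie above the counting line.

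The 6 genes with the lowest CV spanned mean levels of 55.5 to 285 CPM. Pp3c25_4390V3.1 had the lowest CV, 3.90%, at a mean of 55.5 CPM. It stood at 57.3, 57.6 and 57.9 CPM at 0 h, 55.0, 55.3 and 58.7 CPM at 2 h, 57.5, 57.0 and 58.6 CPM at 6 h, 53.6, 56.3 and 52.8 CPM at 12 h and 55.3, 56.2 and 52.3 CPM at 24 h. In the auxin experiment it stood at 53.7, 51.6 and 52.6 CPM with IAA, against 53.8, 55.7 and 56.1 CPM with mock. The IAA libraries had the lowest group mean of this gene, and they overlapped the 12 and 24 h libraries.

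Pp3c2_1850V3.1 followed with a CV of 3.91% at a mean of 107 CPM. It averaged 107 ± 3.81 CPM in the 0 h group, 109.8 ± 2.07 CPM in the 2 h group, 109.9 ± 1.22 CPM in the 6 h group, 110.1 ± 1.72 CPM in the 12 h group and 104 ± 3.92 CPM in the 24 h group (SD, n = 3 each). With IAA it averaged 102 ± 3.55 CPM, against 108 ± 5.52 CPM with mock (SD, n = 3 each). The 3 middle times were the highest, and the 24 h and IAA groups the lowest.

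Pp3c10_8090V3.1 had a CV of 4.01% and the flattest group means of these 6 genes. It averaged 142 ± 10.2 CPM in the 0 h group, 139.8 ± 2.83 CPM in the 2 h group, 142 ± 4.48 CPM in the 6 h group, 145 ± 5.27 CPM in the 12 h group and 146 ± 7.33 CPM in the 24 h group (SD, n = 3 each). It averaged 139 ± 0.708 CPM with IAA, against 141 ± 7.32 CPM with mock (SD, n = 3 each). The 3 libraries at 0 h alone, at 153, 139 and 133 CPM, held both its highest and its lowest value. All the other groups lay inside that range.

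Pp3c14_17310V3.1 had a CV of 4.02% at a mean of 131 CPM, and its 24 h libraries stood apart. They held 138, 138 and 143 CPM, against 129, 126 and 131 CPM at 0 h, and every other library of the series lay at or below 135.7 CPM. Pp3c2_1610V3.1 was the most abundant of the 6, with a CV of 4.05% at a mean of 285 CPM. It averaged 297 ± 8.43 CPM in the 24 h group, its highest group, and 273 ± 8.77 CPM in the 6 h group, its lowest (SD, n = 3 each). Pp3c20_15600V3.1, with a CV of 4.06% at a mean of 97.2 CPM, had its lowest group mean at 0 h, 93.8 ± 1.73 CPM, and its highest in the mock libraries, 103 ± 3.64 CPM (SD, n = 3 each). The groups of these 6 genes thus differed in which was highest.

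**Figure D2:**
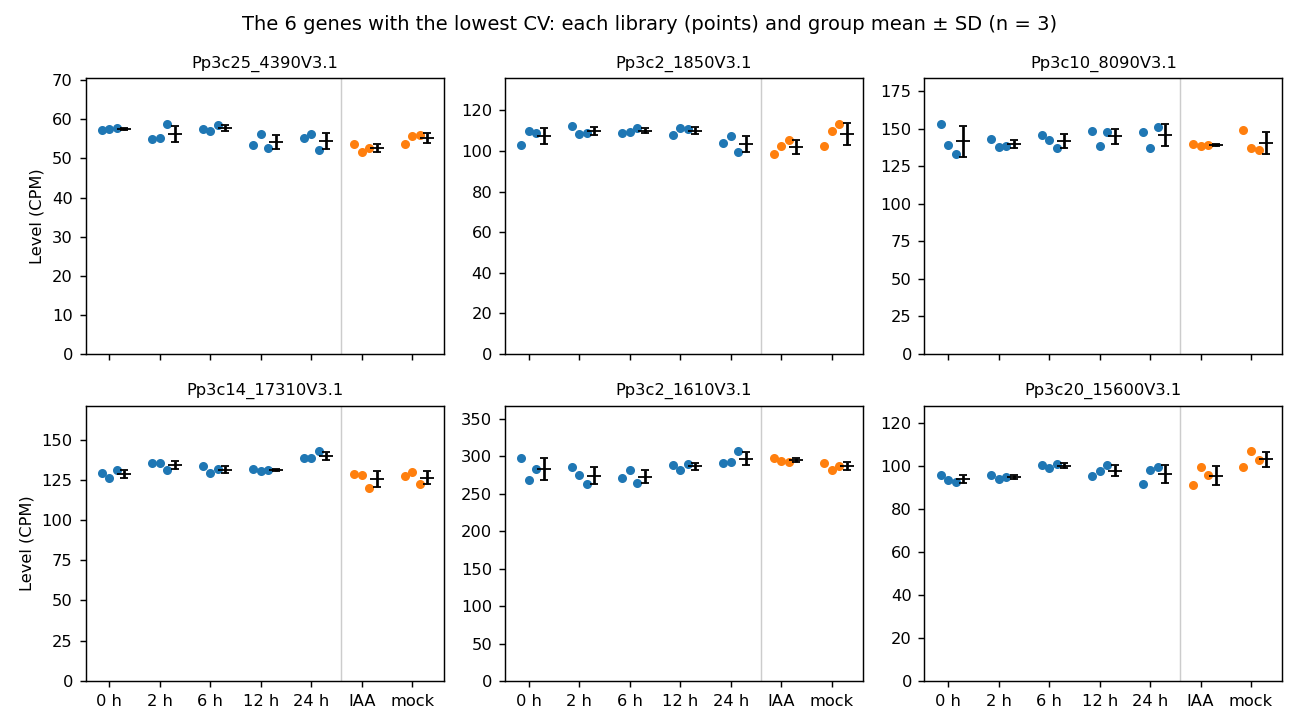
Level (CPM, axes from 0) of the 6 genes with the lowest CV in each library (points) by group, with the group mean ± SD (n = 3) beside the points. No group lies far from the others in any panel, and the 24 h libraries of Pp3c14_17310V3.1, at 138 to 143 CPM, lie above all other libraries of that gene.

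At the edge of the rule the values ran on without a break. The last members were Pp3c1_23160V3.1 and Pp3c18_14590V3.1, with CVs of 5.636 and 5.644%. The first genes outside were Pp3c7_8580V3.1 and Pp3c2_18620V3.1, with CVs of 5.646 and 5.659%. Widest in range among the members was Pp3c8_15350V3.1, with 58.0 CPM in replicate 1 at 0 h and 75.2 CPM in replicate 3 of mock, a ratio of 1.30.

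Part of this small spread was counting error, which for a gene is fixed by its number of pairs. Counting alone would give the members a median CV of 2.07%, between 1.24 and 3.00%, and so a median of 17.9% of their variance (5.05 to 54.0%). For the other genes of the window the same share had a median of 1.93%. The pooled CV between replicates within groups had a median of 3.79% in the members and 5.22% in the others. The part between groups differed more. The members' median share of variance between the 7 groups was 60.6%, against 92.2% in the other genes, where 30% would arise from groups that do not differ.

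The members nevertheless differed in how their remaining variance was placed. In 10 of the 100 the share between groups was below 30%. Pp3c2_34770V3.1 had the lowest, 14.1%, with group means of 55.1 to 58.4 CPM, and Pp3c5_16070V3.1 the next, 16.5%, with group means of 120.5 to 126 CPM. At the other end, Pp3c20_16000V3.1 had 95.5% of its variance between groups. It stood at 213, 219 and 217 CPM at 0 h, 205, 205 and 205 CPM at 2 h, 203, 202 and 202 CPM at 6 h, 187, 193 and 189.9 CPM at 12 h and 207, 214 and 212 CPM at 24 h, with 195, 201 and 199 CPM in IAA libraries, against 185, 191 and 187 CPM in mock libraries. Its 0, 2, 6 and 12 h groups were in falling order with no overlap, its 24 h libraries lay back near 0 h, and its IAA libraries were all above mock. Pp3c11_18810V3.1 came next, with 89.1%: its libraries lay at 219 to 229.7 CPM from 0 to 12 h, at 211, 202 and 209 CPM at 24 h, at 201, 208 and 208 CPM with IAA and at 209.8, 206 and 209 CPM with mock. These group levels hold for CPM. After TMM scaling, described below, the CV of Pp3c11_18810V3.1 was 2.91%, and its IAA libraries, at 217, 221 and 225 CPM, lay above the mock libraries, at 215, 206 and 208 CPM.

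Group by group, the median member stood between 0.984 times its mean, with IAA, and 1.01 times its mean, at 12 h. All group means lay within 10% of the overall mean in 99 members and within 5% in 17. The 12 h and 24 h groups were each the highest group of 21 members, and the IAA group was the lowest of 19. The mean over the auxin experiment divided by that over the decapitation series was 0.902 to 1.09, with a median of 0.995. Summed over all 100 members, a library held 11757 to 12305 CPM.

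Length and chromosome were not used by the rule and are given as a description. The gene models of the members had a median length of 1946.5 bases, from 402 in Pp3c6_16720V3.1 to 7447 in Pp3c12_13780V3.1, against a median of 2458 bases in the other genes. Per kilobase of gene model, which combines this length with the level that the rule did use, their median was 59.8 CPM against 35.0 CPM. By the chromosome number in the identifiers, the members lay on 26 of 27 chromosomes, with none among the 71 window genes of chromosome 27. Chromosome 2 held the most, 10 members among 314 window genes, and chromosomes 7, 11 and 14 held 8 each. In the order of the numbers in the identifiers, the only members within 5 places of each other were Pp3c2_9590V3.1 and Pp3c2_9650V3.1, which stood 3 places apart.

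The choice of these genes depended on how the libraries were put on one scale. TMM scaling (trimmed mean of M values) corrects each library's total by a factor taken from the bulk of the genes, so that the typical gene does not change. The factors ran from 0.924 to 1.065, and their group means were 0.984 for the 0 h group, 1.036 for 2 h, 1.055 for 6 h, 1.057 for 12 h and 0.950 for 24 h, with 0.931 for IAA, against 0.993 for mock. A gene that is flat in CPM takes the inverse of the factor. After TMM scaling the median member accordingly stood at 1.01 times its mean in the 0 h group, 0.955 times in the 2 h, 0.950 times in the 6 h and 0.953 times in the 12 h group, 1.05 times in the 24 h group and 1.06 times with IAA, against 1.01 with mock.

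The median CV of the members was 6.63% after TMM scaling, between 2.33 and 9.96%, and it became smaller in 14 of the 100. Chosen by the same rule on TMM-scaled CPM, the 100 most stable genes held 16 of the members. On CPM scaled by edgeR's RLE factors (relative log expression) they held 14. The median rank of a member moved to 351 and the worst to 1139, of 4723 genes in that window. The share of pairs in the genes above 300 CPM was highest in the 24 h and IAA groups, where the factors were lowest, and lowest at 6 h. Its group medians were 26.6% for 0 h, 25.5% for 2 h, 24.7% for 6 h, 25.2% for 12 h and 28.9% for 24 h, and 28.1% with IAA, against 27.1% with mock. The part of these abundant genes in the difference between the scalings was not tested.

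Some members were flat under both scalings. Pp3c2_1850V3.1 ranked 2 by the CV of CPM and 4 after TMM scaling, with a CV of 3.26%. Pp3c3_17370V3.1, which was picked after its values were seen, ranked 63 by CPM and 1 after TMM scaling, with a CV of 2.33%. In CPM it averaged 62.2 ± 1.52 in the 0 h group, 64.3 ± 2.41 in the 2 h group, 66.5 ± 0.411 in the 6 h group, 66.2 ± 1.52 in the 12 h group and 58.8 ± 2.29 in the 24 h group (SD, n = 3 each). With IAA it averaged 58.9 ± 0.665 CPM, against 62.0 ± 0.408 CPM with mock (SD, n = 3 each). After TMM scaling its 21 libraries lay between 59.2 and 64.9 CPM. Pp3c25_4390V3.1, the flattest gene in CPM, ranked 47 after TMM scaling, with a CV of 4.61%.

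**Figure D3:**
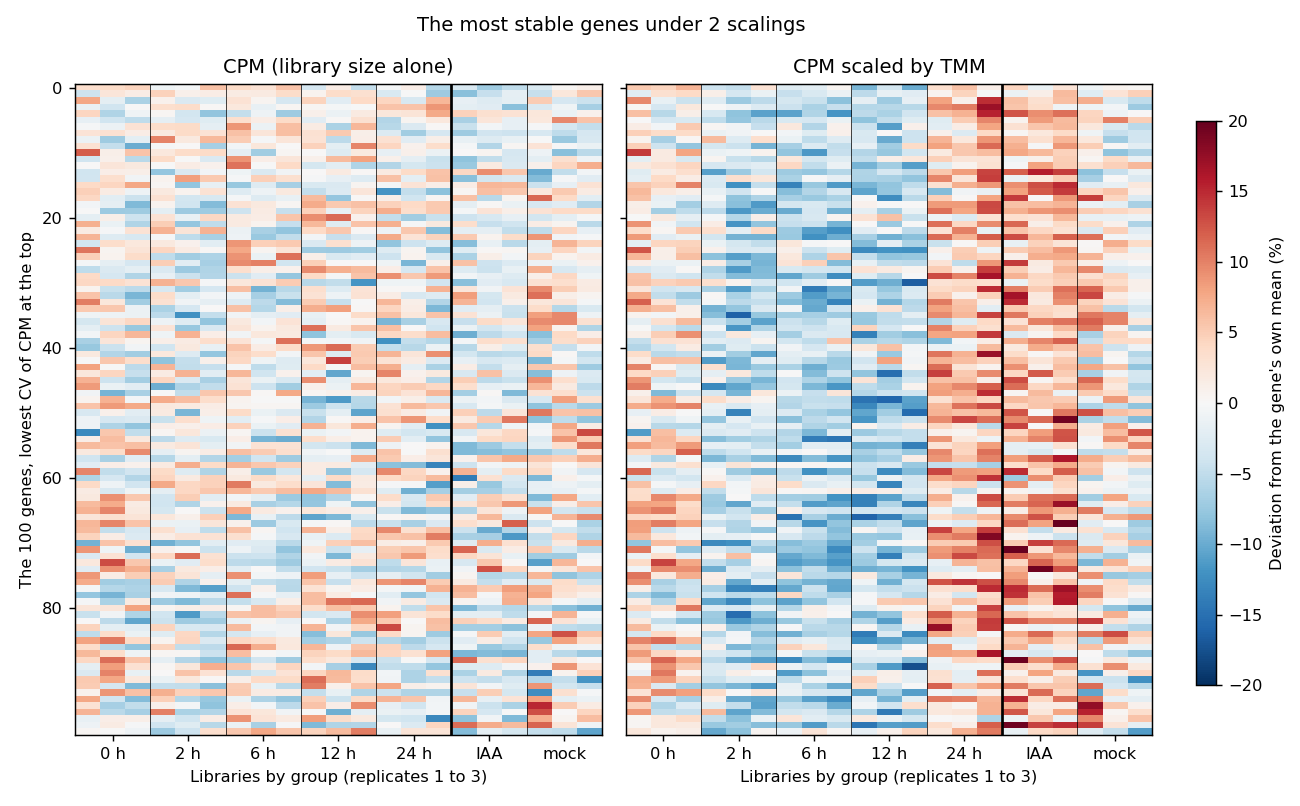
Deviation of each library from the gene's own mean (%, colour) for the 100 members, ordered by the CV of CPM from the top, in CPM (left panel) and in CPM scaled by TMM (right panel), with libraries by group along the horizontal axis. Columns differ little in the left panel, while in the right panel the 2, 6 and 12 h libraries are mostly below and the 24 h and IAA libraries mostly above the mean.

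For the comparisons that the design names, libraries were scaled by TMM within each experiment. A gene was called where edgeR's quasi-likelihood test gave a Benjamini-Hochberg adjusted p below 0.05 over the 20269 genes tested with decapitation or the 19989 tested with IAA. All 100 members passed the filter on low counts. No member changed by as much as 2-fold in any comparison. Because the rule used these same contrasts, the counts of members are set beside the share of all genes called and nothing is read from them.

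At 2 h against 0 h, 17 members were called, all lower, where 26.1% of all genes tested were called (12.3% higher, 13.8% lower) and 41.4% of the level window. The median log2 change of the members was −0.07, against 0.00 over all genes tested. Scaled by library size alone, 6 members were called, 2 higher and 4 lower, with a median log2 change of −0.01. That scaling called 5895 of the 20269 genes tested. The count was 11 without replicate 2 of 0 h, and 8 and 10 without replicates 1 and 2 of 2 h. The shares of all genes called in those reduced fits are not given here, so nothing is read from these counts. Pp3c3_15300V3.1 fell most, to 110.4, 106 and 103 CPM at 2 h, against 117, 125 and 119 CPM at 0 h. The groups did not overlap in CPM, and the log2 change was −0.23 ± 0.044 (SE, n = 3 each) with TMM and −0.17 with library size alone.

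At 6 h against 0 h, 25 members were called, all lower, where 47.5% of all genes tested were called (24% higher, 23.6% lower) and 59.7% of the level window. Their median log2 change was −0.08, against 0.01 over all genes tested. With library size alone 14 were called, 5 higher and 9 lower, and the median was 0.00 to 2 decimals. That scaling called 10508 of the 20269 genes tested. Pp3c3_15300V3.1 again fell most, to 105, 108 and 104 CPM at 6 h, against 117, 125 and 119 CPM at 0 h. Its log2 change was −0.26 ± 0.044 (SE, n = 3 each) with TMM and −0.19 with library size alone.

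At 12 h against 0 h, 39 members were called, all lower, where 49.8% of all genes tested were called (24.8% higher, 25% lower) and 60% of the level window. The median log2 change of the members was −0.10, against 0.01 over all genes tested. The sign of that median turned to 0.02 with library size alone, with 24 members called, 9 higher and 15 lower. That scaling moved the median of all genes tested by over 0.1, to 0.12, with 7640 genes higher and 3626 lower, against 5021 higher and 5067 lower with TMM. Pp3c7_5540V3.1 fell most, to 50.3, 50.7 and 51.7 CPM at 12 h, against 58.3, 59.6 and 56.1 CPM at 0 h. Its log2 change was −0.30 ± 0.040 (SE, n = 3 each) with TMM and −0.19 with library size alone. Its 24 h libraries, at 50.9, 50.3 and 51.7 CPM, overlapped the 12 h libraries in CPM, but after TMM scaling they lay at 52.6 to 55.6 CPM at 24 h, above the 47.3 to 49.0 CPM at 12 h.

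At 24 h against 0 h, 24 members were called, 22 higher and 2 lower, where 35.1% of all genes tested were called (18.6% higher, 16.5% lower) and 49.7% of the level window. Their median log2 change was 0.07, against −0.01 over all genes tested. With library size alone 17 were called, 8 higher and 9 lower, and the median was 0.01. That scaling called 7518 of the 20269 genes tested. The count was 15 without replicate 2 of 0 h, 14 without replicate 3 of 0 h, and 12 where the fit held the 6 compared libraries alone. For those reduced fits the shares of all genes called are not given here, and nothing is read from the counts. Pp3c1_23920V3.1 rose most, to 164, 161 and 168 CPM at 24 h, against 156, 142 and 147 CPM at 0 h, a log2 change of 0.21 ± 0.050 (SE, n = 3 each) with TMM and 0.15 with library size alone. Pp3c12_22360V3.1 fell most, to 55.2, 52.7 and 53.2 CPM at 24 h, against 61.8, 63.4 and 58.9 CPM at 0 h, a log2 change of −0.13 ± 0.040 (SE, n = 3 each) with TMM and −0.19 with library size alone. The groups of both genes were apart in CPM. The call of Pp3c12_22360V3.1 was lost in 5 alternatives: with DESeq2, with the 6 compared libraries alone, and without replicate 1 of 0 h, replicate 2 of 0 h or replicate 2 of 24 h, with log2 changes of −0.10 to −0.13.

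Over the 4 times jointly, 72 members were called, where 73.5% of all genes tested and 87.1% of the level window were called. With library size alone the count was 40. In that fit 87.5% was called in the level window taken over the auxin libraries, which is not the members' own window. The share of all genes called in that fit is not given here, so nothing is read from this count.

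In IAA against mock, 9 members were called, all higher, where 39.7% of all genes tested were called (21.3% higher, 18.4% lower) and 48.1% of the level window. The median log2 change of the members was 0.09, against −0.02 over all genes tested. Its sign turned to −0.02 with library size alone, with 1 member called, higher. That scaling moved the median of all genes tested to −0.12, with 3317 genes higher and 6022 lower, against 4262 higher and 3671 lower with TMM. Leaving out replicate 1, 2 or 3 of IAA gave 3, 4 and 3 called members. Leaving out replicate 2 or 3 of mock gave 4 in each case. Nothing is read from these counts, as the shares of all genes called in those fits are not given here. Pp3c21_18320V3.1 rose most, to 69.9, 72.3 and 75.9 CPM with IAA, against 63.1, 65.2 and 63.3 CPM with mock. Its log2 change was 0.29 ± 0.057 (SE, n = 3 each) with TMM and 0.19 with library size alone, and its 24 h libraries, at 72.6, 74.7 and 71.1 CPM, were the highest of the decapitation series.

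Over these 5 comparisons, 34 members were called in none, 37 in 1, 18 in 2, 3 in 3 and 8 in 4. With the joint test included, 22 were called in none. The matching counts over all genes tested are not given here, so nothing is read from these numbers.

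**Figure D4:**
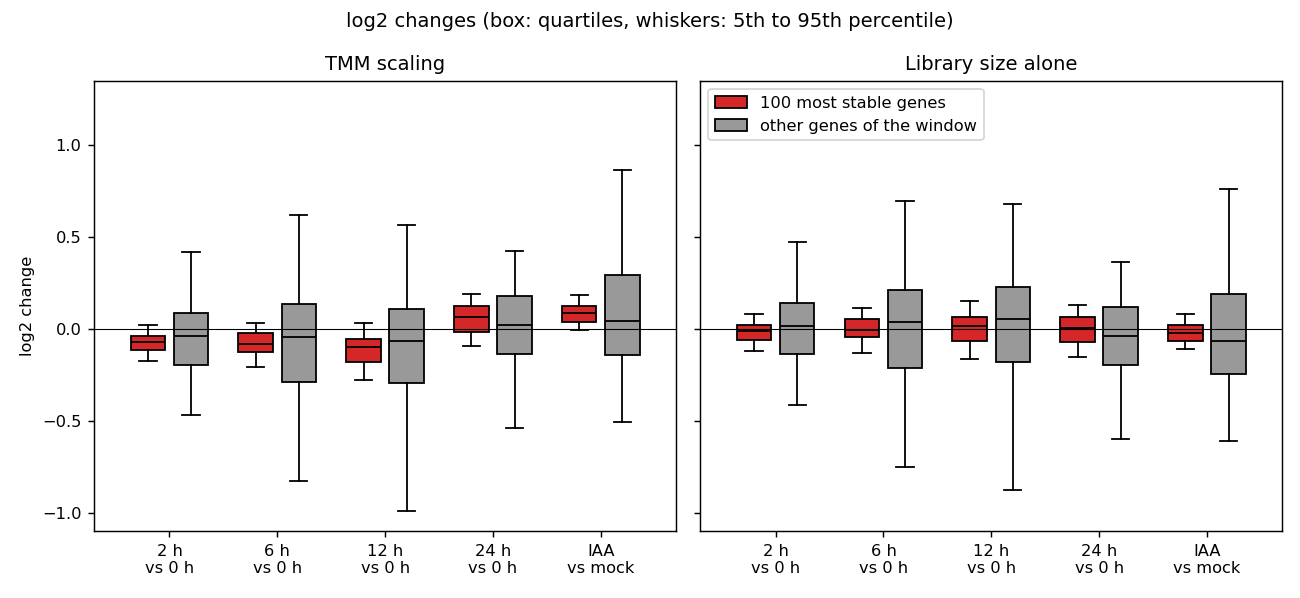
log2 change in the 5 comparisons for the 100 members (red, left box of each pair) and the other genes of the level window (grey, right box), with TMM scaling (left panel) and library size alone (right panel); boxes span the quartiles and whiskers the 5th to 95th percentile. The medians of the members lie at −0.07, −0.08, −0.10, 0.07 and 0.09 with TMM and at −0.02 to 0.02 with library size alone.

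To read stability in libraries that the choice did not use, the same rule was applied to each experiment alone and its genes were read in the other. The 100 genes most stable in the 15 decapitation libraries had a median CV of 3.88% there. In the 6 auxin libraries their median CV was 5.73%, between 1.52 and 23.9%, against 10.6% in the other genes of the window, and 89 of the 100 lay below the window's median. Of these 100 genes, 17 were called in IAA against mock, 12 higher and 5 lower, where 47.5% of their window and 39.7% of all genes tested were called. With library size alone, a setting tried after seeing the data, 20 were called, and the direction turned to 5 higher and 15 lower, where 52.6% of the window was called. With TMM, the count was 11 without replicate 1 of IAA, 10 without replicate 3 of IAA and 11 without replicate 2 of mock. The shares of the window and of all genes called in those fits are not given here.

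The 100 genes most stable in the 6 auxin libraries had a median CV of 2.29% there. In the 15 decapitation libraries their median CV was 6.96%, between 2.96 and 32.3%, against 11.9% in the other genes of the window, and 83 of the 100 lay below the window's median. At 2 h against 0 h, 19 of them were called (2 higher, 17 lower), where 41.0% of their window was called. At 6 h 37 were called (5 higher, 32 lower), against 59.4% of the window. At 12 h the count was 56 (12 higher, 44 lower), close to the 58.9% of the window, and at 24 h it was 54 (42 higher, 12 lower), above the 48.8% of the window. Over the 4 times jointly 91 were called, against 86.6% of the window. Of all genes tested, 26.1% were called at 2 h, 47.5% at 6 h, 49.8% at 12 h, 35.1% at 24 h and 73.5% jointly. With library size alone the counts were 17 at 2 h (5 higher, 12 lower), 28 at 6 h (9 higher, 19 lower), 49 at 12 h (26 higher, 23 lower), 44 at 24 h (23 higher, 21 lower) and 82 jointly. The window shares were then 40.8, 61.3, 60.3, 49.7 and 87.5%. Under both scalings the share called was below that of the window at 2, 6 and 12 h, by little at 12 h with TMM. At 24 h and in the joint test it lay near the window share, above it with TMM and below it with library size alone. Library size alone called 5895, 10508, 11266 and 7518 of the 20269 genes tested at 2, 6, 12 and 24 h. Against all genes tested with TMM, the share called was lower at 2 and 6 h, and higher at 12 h, 24 h and jointly. These differences were not tested.

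Both choices shared 8 genes, 8 of the 100 in each list, and 2 of these are members. Of the 100 members, 22 were in the list of the decapitation libraries and 15 in that of the auxin libraries.

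**Figure D5:**
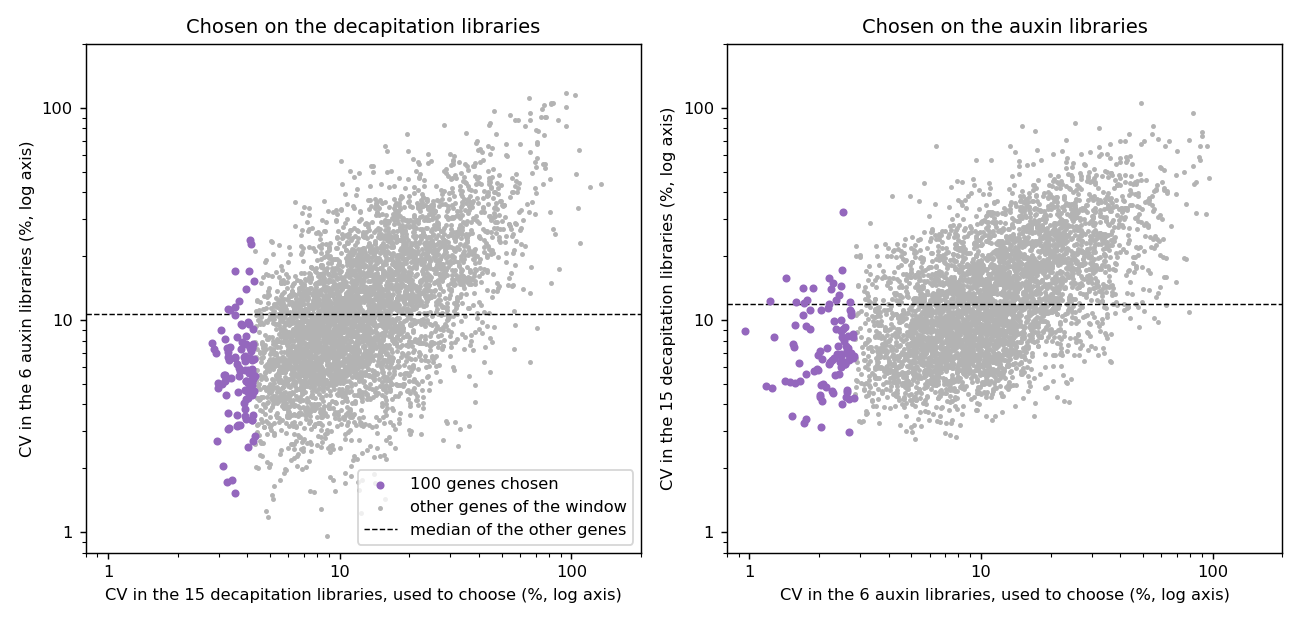
CV in the libraries used to choose (horizontal, %, log axis) against CV in the other experiment's libraries (vertical, %, log axis) for the 100 chosen genes (purple) and the other genes of the window (grey), with the median of the other genes as a dashed line. Counted against the median of the whole window, chosen genes included, 89 of the 100 genes chosen on the decapitation libraries (left panel) lie below it. Of those chosen on the auxin libraries (right panel), 83 lie below.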

How the data were processed

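Poly(A) RNA of 21 stem libraries (stranded, paired-end TruSeq, 4 µg of total RNA each, per the labels' protocols) was read as deposited whole-number counts of read pairs per gene model, which the authors did not normalize. The submitters' processing notes name Bowtie2; its version, the genome build and the annotation are not given in the sources used here. Per the file headers, reads were parsed as pairs, singletons were treated like unmapped reads, and reads that hit several places with equal scores were removed, 11.6 to 13.6% of mapped reads, so genes with near-identical copies are undercounted. Whether the counting used strand is likewise not given in the sources used here; overlapping antisense genes may not be separated.

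From these counts, CPM and CVs over libraries were computed as described in the report, with no test. Groups were compared in R 4.3.3 with edgeR 4.0.16 (filterByExpr, TMM, glmQLFit and glmQLFTest, Benjamini-Hochberg adjustment over all genes tested), separately in the 15 decapitation and 6 auxin libraries, with group as the only term. DESeq2 1.42.0, other scalings, filters, level windows and measures of spread, single reads, a replicate block and leaving out each library were alternatives. The steps were tested on simulated data. Of planted log2 changes of 0.5, 82.4% were recovered at 12 h against 0 h and 72.7% in IAA against mock. Smaller changes, such as those of the members, were not planted. Intervals of counting error assume independent pairs. P-values measure the spread between libraries that the design calls biological replicates. In every pair of replicates of a group the counts differed by more than sampling noise (mean chi-square per gene at least 3.47, where noise alone gives about 1), so no library was counted as a copy of another.

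The members and lists were chosen with earlier results of these data known. Genes were named by rule: the 6 lowest CVs, the genes on both sides of the edge, the extremes of level, range, length and share of variance between groups, and the called member with the largest change per comparison and direction. Of the 32926 identifiers, 0 were found among the 27567 genes of RefSeq's table for assembly ASM5946719v1, so names, coordinates, sequences, usual reference genes and cell type markers were not used here.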

Additional observations from a re-analysis of the deposited data

How the results depend on the processing

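Which genes were members depended on the scaling and on the libraries. Of the 100 members, 16 remained among the 100 most stable with TMM scaling and 14 with edgeR's RLE factors. On the 15 decapitation libraries 22 remained, on the 6 auxin libraries 15, and by the pooled CV within groups 9. Leaving out each library in turn kept 85 to 97, and 75 were kept in every such choice. The median CV of the chosen genes, 5.05%, was 4.69, 4.65, 3.88 and 2.29% in the first 4 of these settings, and the highest CV, 5.64%, was 5.23, 5.21, 4.31 and 2.84%, with 5.37% in a window of 30 to 500 CPM and 5.33% from 10 CPM upwards. With library size alone the called members numbered 6 at 2 h, 14 at 6 h, 24 at 12 h, 40 jointly and 1 with IAA, and the median log2 changes were −0.010 at 2 h, −0.0030 at 6 h, 0.019 at 12 h, 0.0069 at 24 h and −0.019 with IAA. Members called at 6 h numbered 16 with no filter, 39 with all 21 libraries in one fit and 16 with the 6 compared libraries alone, which gave 12 at 24 h, and IAA called 27 with all 21 libraries in one fit. The shares of all genes called in these fits are not given here, so nothing is read from these counts. Chosen on TMM-scaled CPM, which was tried after seeing the data, the 100 genes held 4 calls at 2 h, 10 at 6 h, 17 at 12 h, 7 at 24 h, 24 jointly and 2 with IAA. The shares of all genes called that belong beside these counts are those given with the comparisons above. Without 1 library the calls ranged from 8 to 15 at 2 h, 14 to 30 at 24 h, 3 to 12 with IAA and 10 to 18 with IAA for the genes chosen on the decapitation libraries. Of the values so recomputed, 36 in other settings and 13 without 1 library moved, and 74 and 146 stayed within 1.5 times the count, or, for medians and CVs, within the spread between replicates or the error from leaving out libraries. The cause of each shift was not tested.

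The replicate numbers did not meet the correlation rule for pairing over all genes, and the main fits held group alone. Replicate 1 was still the highest library in all 7 groups in 14 of the 100 members and in 3.18% of the other window genes. An effect shared by the libraries of replicate 1 was not tested. Over all genes the mean correlation of deviations was 0.0390 between same-numbered libraries and −0.0195 between others, with a lowest value of −0.212, and in 0 of 21 pairs of groups were all same-numbered correlations above 0.1. Over the members alone the means were 0.234 and −0.115, the lowest was −0.213, and 7 of 21 pairs of groups, IAA and mock among them, had all same-numbered correlations above 0.1. With the replicate number as a block, 21, 31, 44 and 31 members were called at 2, 6, 12 and 24 h. Jointly 79 members were called, and with IAA 11. Of the genes chosen on 1 experiment, 18 and 91 were called. All these counts lay within 1.5 times those without the block. The shares of all genes called with the block are not given here, so nothing is read from the counts. Of the 6 changes named, the fall of Pp3c12_22360V3.1 at 24 h was no longer called with DESeq2 (log2 change −0.12), with the 6 compared libraries alone (−0.13), and without replicate 1 of 0 h (−0.12), replicate 2 of 0 h (−0.10) or replicate 2 of 24 h (−0.12). The other 5 were called in every alternative run for them, 14 for Pp3c21_18320V3.1 and 15 for each of the rest. At this depth, counting alone gives a member a CV of 1.24 to 3.00%, so a difference of that size between single libraries cannot be told from counting error.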

Other observations

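Replicate 1 stood highest in all 7 groups more often than lowest, both among these genes and in the rest of the level window. The members were chosen on these same values, so the difference between their share and that of the rest is only described. In 14 of the 100 members replicate 1 was the highest library in all 7 groups, against 147 of the 4620 other genes (3.18%). It was the lowest in all 7 groups in none of the members, against 42 of the other genes (0.909%). The mean relative level of the members was highest in replicate 1 in 5 of the 7 groups. With IAA it was lowest in replicate 1, at 0.9886, against 0.9918 in replicate 2 and 0.9894 in replicate 3. With mock, replicate 1 lay between the other replicates. The count of single reads per pair was highest in replicate 1 in 6 of 7 groups, at 2.01 to 2.02, against 1.998 to 2.03 in replicates 2 and 3. Its part in the levels was not tested.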
